A study of Homo sapiens with 148 samples.

Results

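Most of the pluripotency network genes mark human embryonic stem cells (hESCs) or act in the circuit that keeps them undifferentiated. The set holds 10 genes: POU5F1, NANOG, SOX2, SOX2-OT, DPPA4, ZFP42, PRDM14, L1TD1, UTF1 and SALL4. They were taken by name from a table of 49085 gene names, and each of the 10 had a single entry there. RNA-seq levels were available for H9 hESCs, an established wild-type line kept in the undifferentiated state, and for cells derived from them in spheroid culture by stepwise pancreatic differentiation: definitive endoderm (DE) at day 4, after Activin A and CHIR99021; primitive gut tube-like cells (PGT) at day 7, after KGF; pancreatic progenitors (PP) at day 14, after a mixture that included KGF, Sant1 and retinoic acid; and organoids that contain stem cell-derived β cells (SC-β) at day 35, after a last phase with an ALK5 inhibitor and T3. A further differentiated stage is labelled PH, and neither its day nor its medium is given in the sources used here. The labels list 148 samples, of which 12 are RNA-seq samples, 2 at each of the 6 stages. The deposited table holds 1 value per gene and stage, the authors' mean in TPM (reads divided by transcript length and scaled to the same total in every stage), so no spread between replicates and no test can be given, and the read depth behind a value is unknown.

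All cells come from 1 line, and each stage was measured in bulk, so fewer cells of a kind and less RNA per cell cannot be told apart. The stage labels were set against marker lists. In DE, each of 9 definitive endoderm markers exceeded its hESC level at least 2-fold, with CER1 at 1483 TPM and SOX17 at 96.1 TPM there. Of all names, 12.9% were at least 2-fold higher in DE than in hESCs. The summed level of 10 pancreatic and endocrine markers was 4.21 TPM in hESCs, 318 TPM in PP and, highest of all, 4134 TPM in SC-β. GCG, the glucagon gene of α cells, made up 2793 TPM of the SC-β sum, CHGA 805 TPM and INS, the insulin gene, 298 TPM. PDX1 and NKX6-1, which define pancreatic progenitors, were low throughout: PDX1 had 3.17 TPM in PP, its highest stage, and NKX6-1 had 5.37 TPM in SC-β, its highest. In PH, the 15 neural progenitor markers summed to 874 TPM, against 145 TPM for PP and 298 TPM for SC-β, and 14 of the 15 had their highest level there. Of the 12849 names that reached 10 TPM in some stage, 12.4% had their highest level in PH. SOX1 and LHX2, among the 14, did not reach 10 TPM, with highest levels of 5.42 and 3.71 TPM. What the marker content of PH contributes to the levels given below was not tested.

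Pluripotency in hESCs rests on a small set of transcription factors that activate each other and their own genes while holding differentiation genes silent. POU5F1 (also called OCT4) and SOX2 bind DNA side by side at a composite element, and NANOG, a homeodomain factor, occupies many of the same enhancers. SOX2 is not exclusive to pluripotent cells: it also specifies neural progenitors and parts of the anterior gut. Around this core sit PRDM14, a zinc finger protein that represses differentiation genes, SALL4, a zinc finger factor of early embryonic cells and fetal tissues, ZFP42 (also called REX1), a zinc finger protein related to YY1, the chromatin proteins DPPA4 and UTF1, and L1TD1, an RNA-binding protein derived from a retrotransposon. SOX2-OT is a long noncoding RNA whose gene spans that of SOX2.

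All members except PRDM14 are placed here. On GRCh38, the build called hg38 in the methods of the study, GENCODE version 44 places POU5F1 (ENSG00000204531.21) at 31164337 to 31180731 of chromosome 6 (reverse strand). NANOG (ENSG00000111704.11) is a forward-strand gene of chromosome 12 (7787794 to 7799146). SOX2 (ENSG00000181449.4) has 1 exon, at 181711925 to 181714436 of chromosome 3 (forward strand), inside SOX2-OT (ENSG00000242808.12), which runs on the same strand from 180989762 to 181836880. None of the 119 annotated SOX2-OT transcripts has an exon over the SOX2 exon (0 transcripts), but since both genes share a strand, a stranded library cannot separate intronic RNA of SOX2-OT from SOX2. DPPA4 lies on chromosome 3 (109326144 to 109337546, reverse strand), ZFP42 on chromosome 4 (187995771 to 188005046, forward strand), L1TD1 on chromosome 1 (62194849 to 62212328, forward strand), UTF1 on chromosome 10 (133230217 to 133231558, forward strand) and SALL4 on chromosome 20 (51782331 to 51802521, reverse strand).

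The promoters are shown because most of these genes had their highest RNA level in the same stage. RefSeq start sites on GRCh38.p14 were found for 7 of the 10 genes, with 9 starts in all because SOX2-OT has several; POU5F1, PRDM14 and SALL4 had no entry. The 250 bases before each start were searched on both strands for 5 motifs. The POU letters, bound by the family to which POU5F1 belongs, were TTTGCAT. The SOX letters, the core that factors such as SOX2 recognise in DNA, were ACAATG. The composite was the POU letters, any 1 base and then the SOX letters, so each composite match also contains both shorter motifs. The GC box, found in very many promoters that are rich in CpG dinucleotides, was GGGCGG. The TATA box, a core promoter element that lies close to the start of some genes, was TATAAA. These motifs were chosen after the sequences had been seen. Capitals mark every match.
NANOG, chr12:7789152-7789401, forward strand: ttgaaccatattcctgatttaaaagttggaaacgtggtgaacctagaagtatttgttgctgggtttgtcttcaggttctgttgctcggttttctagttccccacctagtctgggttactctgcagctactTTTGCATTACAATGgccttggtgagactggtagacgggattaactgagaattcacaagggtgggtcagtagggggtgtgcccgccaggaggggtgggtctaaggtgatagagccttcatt
SOX2, chr3:181711675-181711924, forward strand: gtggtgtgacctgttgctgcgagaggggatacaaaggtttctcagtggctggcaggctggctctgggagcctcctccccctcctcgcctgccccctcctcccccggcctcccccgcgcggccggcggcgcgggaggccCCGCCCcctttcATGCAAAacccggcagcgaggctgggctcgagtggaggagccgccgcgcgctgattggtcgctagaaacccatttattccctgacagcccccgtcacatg
ZFP42, chr4:187995521-187995770, forward strand: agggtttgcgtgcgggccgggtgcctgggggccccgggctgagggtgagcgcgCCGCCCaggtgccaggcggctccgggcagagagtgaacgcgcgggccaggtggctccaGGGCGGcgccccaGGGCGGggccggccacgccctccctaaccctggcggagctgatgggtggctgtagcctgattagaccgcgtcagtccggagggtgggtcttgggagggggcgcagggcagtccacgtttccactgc
DPPA4, chr3:109337547-109337796, reverse strand: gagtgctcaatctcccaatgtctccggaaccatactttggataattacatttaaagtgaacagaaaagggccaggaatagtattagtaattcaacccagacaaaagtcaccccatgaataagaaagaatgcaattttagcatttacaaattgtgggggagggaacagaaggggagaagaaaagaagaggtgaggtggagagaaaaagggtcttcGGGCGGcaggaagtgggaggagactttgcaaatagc

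NANOG carried the composite, from 120 to 107 bases before its start (12:7789282 to 7789295). Of 35116 promoters of the same length, 2 held these letters on either strand, or 0.0057%. The letters were chosen with the NANOG sequence known, so this share lends its match no weight. SOX2 held the POU letters alone, from 100 to 94 bases before its start, on the opposite strand. The POU letters were found in 3.94% of all promoters and the SOX letters in 9.29%. The promoters of ZFP42 and DPPA4 are shown as examples without the POU and SOX letters. They differed in base composition: ZFP42 had 23 CpG dinucleotides and a GC content of 74.4%, whereas DPPA4 had 3 CpG and 43.2%, against a median of 11 CpG and 58% over all promoters. NANOG had 4 CpG, SOX2 20 and UTF1, the richest of the group, 32. GC boxes were present before DPPA4, L1TD1, SOX2, UTF1 and ZFP42, and in 42.6% of all promoters. A TATA box occurred before 1 of the SOX2-OT starts and in 10.7% of all promoters. A match describes the letters in this window and is not evidence of binding.

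POU5F1, the central factor of the network, was the most abundant of the 10 genes in hESCs, at 1449 TPM, which placed it at rank 46 among all gene names. Its level was 417 TPM in DE, 25.4 TPM in PGT, 0.543 TPM in PP, 0.425 TPM in PH and 0.377 TPM in SC-β. DE thus still held 28.8% of the hESC level and rank 186, PGT held 1.75%, and the 3 later stages lay below 1 TPM. On the log2(TPM + 1) scale, used for all log2 ratios here, POU5F1 differed from hESCs by -1.79 in DE, -5.78 in PGT and -9.88 in PP. The largest single step was from PGT to PP (-4.10), closely followed by that from DE to PGT (-3.99).

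NANOG was at 44.6 TPM in hESCs, 8.96 TPM in DE and 0.293 TPM in PGT. It was then at 0.0352 TPM in PP, 0.0284 TPM in PH and 0.0215 TPM in SC-β. PRDM14 followed almost the same course, at 47.3 TPM in hESCs and 4.75 TPM in DE, and was listed at 0 in PGT. Its later values were 0.0646 TPM in PP, 0.0152 TPM in PH and 0.0415 TPM in SC-β. Of the 9 genes listed above 0 in DE, PRDM14 had the lowest level there relative to hESCs, 10.0% (log2 ratio -3.07), followed by SOX2 at 16.9%, NANOG at 20.1% and POU5F1 at 28.8%. The profiles of NANOG and PRDM14 were the closest pair among the 10 genes, each profile set to its own maximum. They differed by a mean of 0.255 log2 units over the 6 stages, and the next pair, ZFP42 and L1TD1, by 0.849. With a pseudocount of 1 TPM, this measure depends on a gene's highest level once the gene falls below 1 TPM. NANOG and PRDM14 had similar maxima, at 44.6 and 47.3 TPM. POU5F1, with a higher maximum, was 2.42 log2 units from NANOG although it too lay below 1 TPM from PP on.

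UTF1 was low even where it was highest, at 0.819 TPM in hESCs, and was listed at 0 in the 5 other stages. With a pseudocount of 1 TPM it cannot reach 2-fold in either direction, so it counts below as neither higher nor lower although its only value above 0 was that of hESCs.

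L1TD1 and DPPA4 were lower at each later sampled stage than in hESCs, but neither reached the near absence of POU5F1 and NANOG. L1TD1 was at 413 TPM in hESCs, 237 TPM in DE, 38.1 TPM in PGT, 20.4 TPM in PP, 4.56 TPM in PH and 8.48 TPM in SC-β. In DE, 57.5% of the hESC level was thus present, and the largest step came between DE and PGT (log2 ratio -2.61). DPPA4 was at 266 TPM in hESCs, 126 TPM in DE, 53.8 TPM in PGT, 77.2 TPM in PP, 22.0 TPM in PH and 12.0 TPM in SC-β. In PP it held 29.0% of its hESC level, where POU5F1 held 0.0374%, and it was 1.44-fold above PGT, a difference under 2-fold. Its largest step was the last, from PP to SC-β (log2 ratio -2.59).

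ZFP42 and SALL4 did not follow a single downward course. ZFP42 was at 149.7 TPM in hESCs, 58.5 TPM in DE, 105.7 TPM in PGT, 11.7 TPM in PP, 0.838 TPM in PH and 5.02 TPM in SC-β. PGT was therefore 1.81-fold above DE, a difference under 2-fold, and held 70.6% of the hESC level, at a stage where NANOG held 0.657%. SALL4 was the only one of the genes with its maximum in DE, with 225 TPM there and 103 TPM in hESCs (log2 ratio 1.12). This difference was 0.64 after median-ratio rescaling and 0.95 when the totals were recomputed without the 100 most abundant genes, both under 2-fold. SALL4 was then at 87.1 TPM in PGT, 46.4 TPM in PP, 10.4 TPM in PH and 31.7 TPM in SC-β, so that the organoids kept 30.7% of the hESC level.

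**Figure D1:**
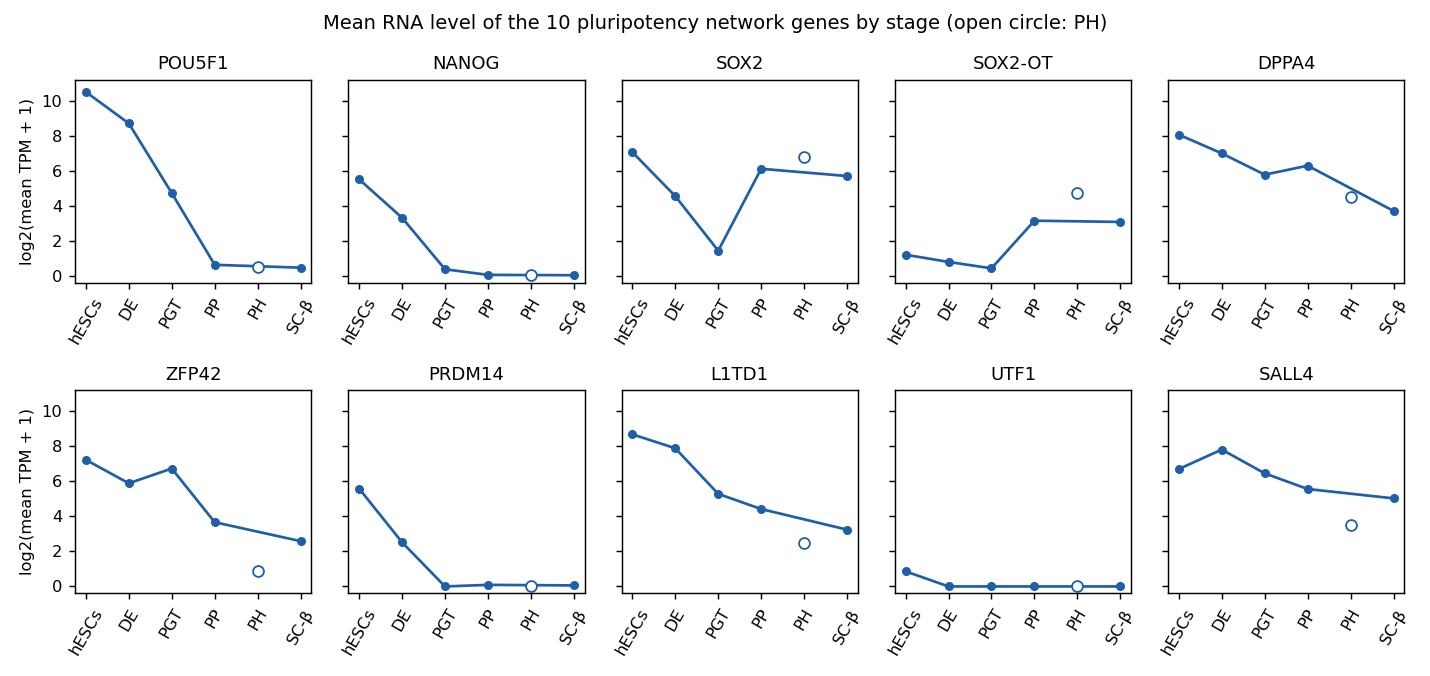
Mean RNA level of each of the 10 genes (vertical axis, log2 of mean TPM + 1) at each stage (horizontal axis), with the dated stages joined by a line and PH as an open circle; each point is the authors' mean and has no error bar. POU5F1, NANOG and PRDM14 lie near 0 from PP on, SOX2 dips to 1.70 TPM in PGT and returns to 68.2 TPM in PP, and SOX2-OT is highest in PH at 25.7 TPM.

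SOX2 was at 133 TPM in hESCs, 22.4 TPM in DE and 1.70 TPM in PGT, and at 68.2 TPM in PP, 109 TPM in PH and 50.9 TPM in SC-β. It was thus low along with NANOG and POU5F1 in PGT, but 40.2-fold higher in PP than in PGT (log2 ratio 4.68). Its level in PP was 51.3% of that in hESCs, a log2 ratio of -0.95. That ratio passed 2-fold (-1.20) after median-ratio rescaling but was -0.84 with totals that omit the 100 most abundant genes. PH held 81.8% of the hESC level, and by rank among all names SOX2 stood higher in PH (516) than in hESCs (711).

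SOX2-OT had the same order of stages as SOX2 except for the place of hESCs, which came first for SOX2 and after PH, PP and SC-β for SOX2-OT. It was at 1.30 TPM in hESCs, 0.728 TPM in DE, 0.341 TPM in PGT, 7.85 TPM in PP, 25.7 TPM in PH and 7.43 TPM in SC-β. Both genes were lowest in PGT and higher in PP, PH and SC-β than in DE and PGT, but SOX2-OT was 5.71-fold above hESCs in SC-β and 19.8-fold above them in PH. SOX2 itself had a log2 ratio of -0.29 in PH against hESCs, and 0.04 with totals that omit the 100 most abundant genes, so its direction there depends on the scaling. The table also lists 3 fragments of this RNA under names of their own. SOX2OT_exon3 had 0.0513 TPM in hESCs but 4.57 TPM in PH, SOX2OT_exon4 was at 0.373 and 0.794 TPM, and SOX2OT_exon1 was at 0.130 and 0.301 TPM. All of them were highest in PH.

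Close relatives of SOX2 were set beside it. SOX3 was at 1.60 TPM in hESCs, 0.376 TPM in PGT, 3.95 TPM in PP, 16.5 TPM in PH and 1.15 TPM in SC-β. SOX21 was at 1.00 TPM in hESCs, 1.66 TPM in PGT, 8.38 TPM in PP, 11.5 TPM in PH and 2.62 TPM in SC-β. SOX1 was listed at 0 in hESCs and PGT and reached 5.42 TPM in PH. SOX14 stayed at or below 0.123 TPM in all stages. SOX2 was the most abundant of these SOX genes in each stage, though in PGT SOX2 and SOX21 were nearly equal at 1.70 and 1.66 TPM.

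Markers of other cell types that use SOX2 were summed. The summed neural progenitor markers were 170 TPM in hESCs, 56.1 TPM in PGT, 145 TPM in PP, 874 TPM in PH and 298 TPM in SC-β. NES, an intermediate filament gene of neural progenitors that is also expressed in hESCs, made up 121 TPM of the hESC sum. ZIC1 was at 172.8 TPM in PH, 73.7 TPM in SC-β and 17.2 TPM in PP, DCX at 169 TPM in PH and 12.0 TPM in PP, and HES5 at 109.8 TPM in PH and 0.0882 TPM in PP. The 12 foregut and gastric markers in the table, of 13 listed, summed to 205 TPM in PGT, where SOX2 was lowest, 67.6 TPM in PP, 27.8 TPM in PH and 77.7 TPM in SC-β. HHEX and FOXA2, which the definitive endoderm list also holds, made up 137 and 48.7 TPM of the PGT sum. The other 10 markers summed to 16.1 TPM in DE, 19.1 TPM in PGT, 46.3 TPM in PP, 26.5 TPM in PH and 69.7 TPM in SC-β, a sum formed after the values were seen. CLDN18, a tight junction gene of stomach and lung, was at 0.707 TPM in PGT, 25.6 TPM in PP, 1.97 TPM in PH and 18.4 TPM in SC-β. TFF1, a gastric secreted peptide, had 19.9 TPM in SC-β, its highest stage, and 0.0915 TPM in PP. The part of these cell types in the SOX2 level was not tested.

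**Figure D2:**
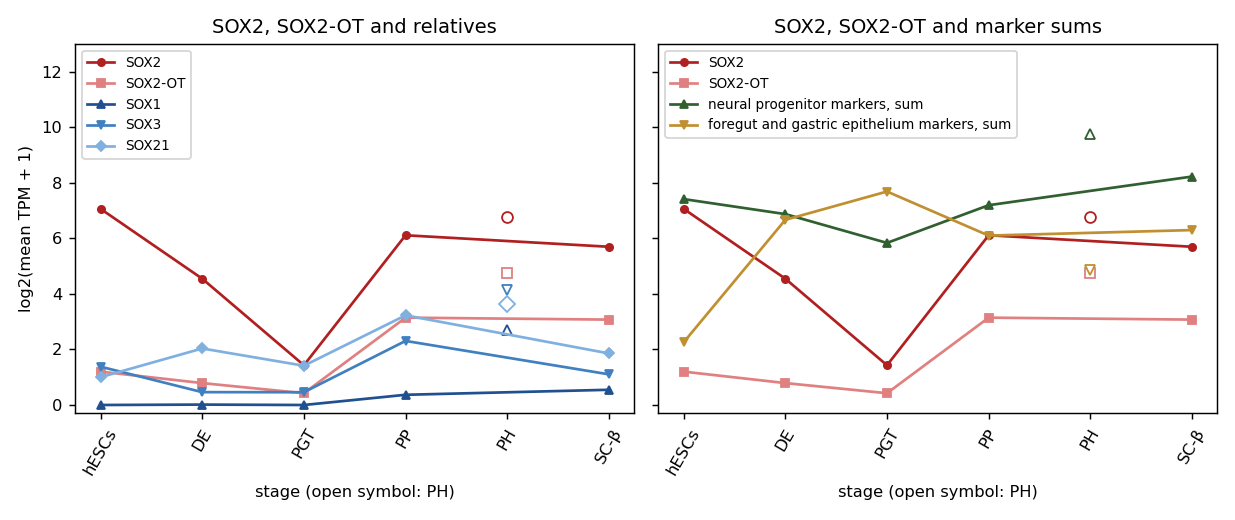
SOX2 and SOX2-OT by stage (log2 of mean TPM + 1) beside the related genes SOX1, SOX3 and SOX21 (left) and beside the summed TPM of the neural progenitor and of the foregut and gastric markers (right); dated stages are joined by a line and PH is an open symbol. SOX2, SOX2-OT and SOX3 are lowest or near lowest in PGT, and the neural sum is highest in PH at 874 TPM, where the foregut and gastric sum (HHEX and FOXA2 included) is 27.8 TPM.

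Across the 10 genes, 8 had their highest level in hESCs, SALL4 in DE and SOX2-OT in PH. Of all 12849 names that reached 10 TPM in some stage, 18.2% had their highest level in hESCs. UTF1, among the 8, did not reach 10 TPM and is outside that background. A count of genes at least 2-fold below hESCs follows, beside the share of all names at least 2-fold below in the same comparison. In DE, 6 of the 10 genes were at least 2-fold lower (POU5F1, NANOG, SOX2, DPPA4, ZFP42 and PRDM14), against 2.55% of all names, and SALL4 was higher, against 12.9%. In PGT, 6 were lower, with L1TD1 in place of ZFP42, against 4.34%, and 0 were higher, against 10.1%; PRDM14 is counted as lower because it is listed at 0. In PP, 7 were lower, against 4.06%, and SOX2-OT was higher, against 7.98%. In PH, 7 were lower, against 8.35%, and SOX2-OT was higher, against 12.1%. In SC-β, 8 were lower, against 3.7%, and SOX2-OT was higher, against 22.2%.

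Taking the 10 genes as a group, the middle log2 ratio to hESCs (their median) was -1.21 in DE, -2.85 in PGT, -2.67 in PP, -4.50 in PH and -4.50 in SC-β. The median over all names lay between 0 in PH and 0.23 in SC-β. Most names are near 0 in every stage, and among the names at 1 TPM or more in either stage the share at least 2-fold below hESCs was 5.55% in DE, 10% in PGT, 9.63% in PP, 18.9% in PH and 7.08% in SC-β. The 5 comparisons share the same hESC column and are not independent of each other.

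**Figure D3:**
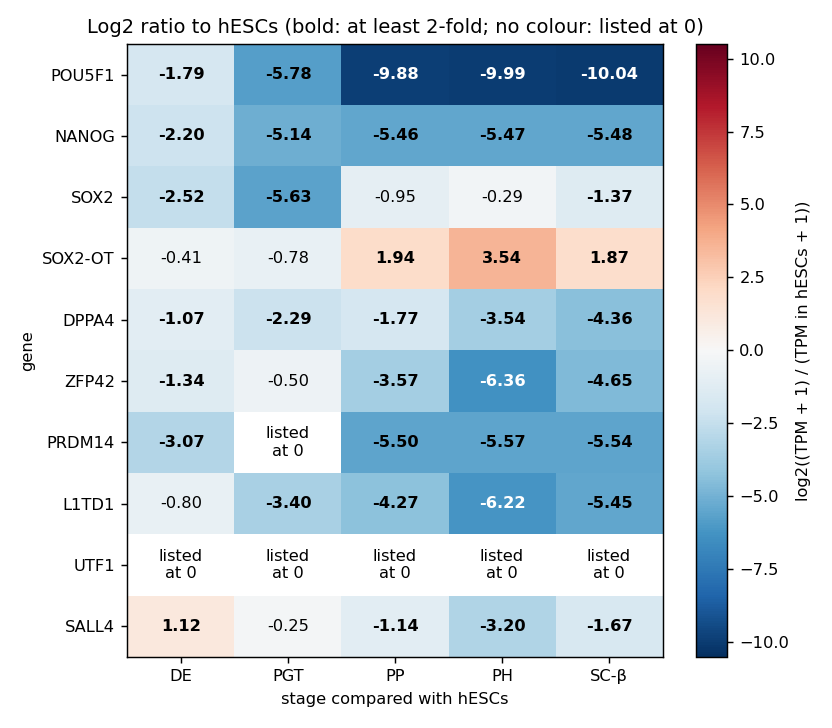
Log2 ratio of each gene (rows) to hESCs at each of the 5 differentiated stages (columns), with a pseudocount of 1 TPM; bold numbers are at least 2-fold and cells without colour are listed at 0 TPM. POU5F1 reaches -10.04 in SC-β, SOX2 returns to -0.95 in PP, and SOX2-OT is positive from PP on.

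Step by step along the dated stages, 7 of the 10 genes differed by at least 2-fold from hESCs to DE, as given above, and 7 from DE to PGT, but in the second of these steps all 7 were lower. From DE to PGT, 7 of the 10 were at least 2-fold lower (POU5F1, NANOG, SOX2, DPPA4, PRDM14, L1TD1 and SALL4), against 4.92% of all names, and 0 were higher, against 2.3%. From PGT to PP, POU5F1 and ZFP42 were at least 2-fold lower, against 3.25%, and SOX2 and SOX2-OT were higher, against 2.74%. From PP to SC-β, DPPA4, ZFP42 and L1TD1 were lower, against 0.939%, and 0 were higher, against 10.6%.

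PH was set beside PP and SC-β since it has no day. Against PP, 4 genes were at least 2-fold lower in PH (DPPA4, ZFP42, L1TD1 and SALL4), against 5.73% of all names, and SOX2-OT was higher, against 5.14%. Going from PH to SC-β, SOX2 and SOX2-OT were lower, against 2.41%, and ZFP42 and SALL4 were higher, against 14.7%. Of the 4 genes at least 2-fold lower in PH than in PP, all except DPPA4 also had a lower value in PH than in SC-β.

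Other genes of primed hESCs, the state in which human lines are usually grown, were counted from a list of 36. Of these, 20 had their highest level in hESCs. Relative to hESCs, 14 were at least 2-fold lower in DE and 6 higher, 26 lower and 2 higher in PGT, 27 lower and 0 higher in PP, 30 lower and 2 higher in PH, and 28 lower and 2 higher in SC-β. The background shares are those given for the 10 genes. Its median was -0.59 in DE and -2.62 in PGT on the log2 scale. Thus 38.9% of this list against 60% of the 10 genes was lower in DE, and 72.2% against 60% in PGT; these shares carry no test.

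Genes of Nodal signalling within this list differed from each other in DE. TDGF1, a Nodal co-receptor, was at 255 TPM in hESCs, 293 TPM in DE and 5.61 TPM in PGT. LEFTY2, a Nodal inhibitor, was at 42.6 TPM in hESCs, 215 TPM in DE and 0.109 TPM in PGT, and NODAL itself was at 181 TPM, 31.3 TPM and 0.988 TPM. OTX2, a factor of primed cells and of the anterior embryo, was at 22.1 TPM in hESCs, 229 TPM in DE and 23.9 TPM in PGT.

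LIN28A, an RNA-binding protein that blocks let-7 maturation, was at 724 TPM in hESCs, 772 TPM in DE, 516 TPM in PGT, 169 TPM in PP, 0.0162 TPM in PH and 27.5 TPM in SC-β. Its PH value was the lowest of the 6 stages, as were those of ZFP42, L1TD1 and SALL4. DNMT3B, a DNA methyltransferase, was at 375 TPM in hESCs, 186 TPM in DE, 51.7 TPM in PGT, 20.8 TPM in PP, 59.5 TPM in PH and 24.1 TPM in SC-β. The surface protein genes PODXL and EPCAM were at 210.2 and 160.1 TPM in hESCs and at 9.04 and 29.3 TPM in PH. EPCAM was above its hESC level in DE, its highest stage (405 TPM), PGT (348 TPM) and PP (180 TPM). PODXL was at 229 TPM in DE, 86.3 TPM in PGT and 28.2 TPM in PP. CD9 had 181 TPM in hESCs but 41.2 TPM in DE, and the noncoding RNA LINC00678 had 336 TPM in hESCs but 7.37 TPM in DE.

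Genes of naive pluripotency, an earlier state that standard hESC culture does not maintain, were mostly low in hESCs: 7 of 15 reached 1 TPM, and NR5A2 was the highest, at 10.1 TPM. Of the 15, 3 were at least 2-fold lower and 2 higher in DE, where 2.55% of all names were lower and 12.9% higher, and 4 were lower and 3 higher in PGT, where the shares were 4.34% and 10.1%. TBX3, which also acts in endoderm, was at 0.310 TPM in hESCs, 53.1 TPM in DE and 126 TPM in PGT. KLF5 had 5.29 TPM in hESCs but 38.2 TPM in SC-β, and KLF4 at 4.26 and 12.8 TPM. Germ cell markers were counted because PRDM14 and POU5F1 are also expressed in primordial germ cells. The 9 markers summed to 27.3 TPM in hESCs, 183 TPM in DE and 90.5 TPM in PGT. KIT, a receptor that endoderm also expresses, made up 141 TPM of the DE sum and 68.7 TPM of the PGT sum, and PRDM1 had 37.9 TPM in DE. Relative to hESCs, 2 of the 9 were at least 2-fold lower and 2 higher in DE, and 1 lower and 4 higher in PGT. DDX4 and DAZL, which define later germ cells, did not exceed 0.202 TPM in any stage, NANOS3 did not exceed 1.82 TPM (these 3 were named after their values were seen), and TFAP2C was highest in hESCs at 12.7 TPM.

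**Figure D4:**
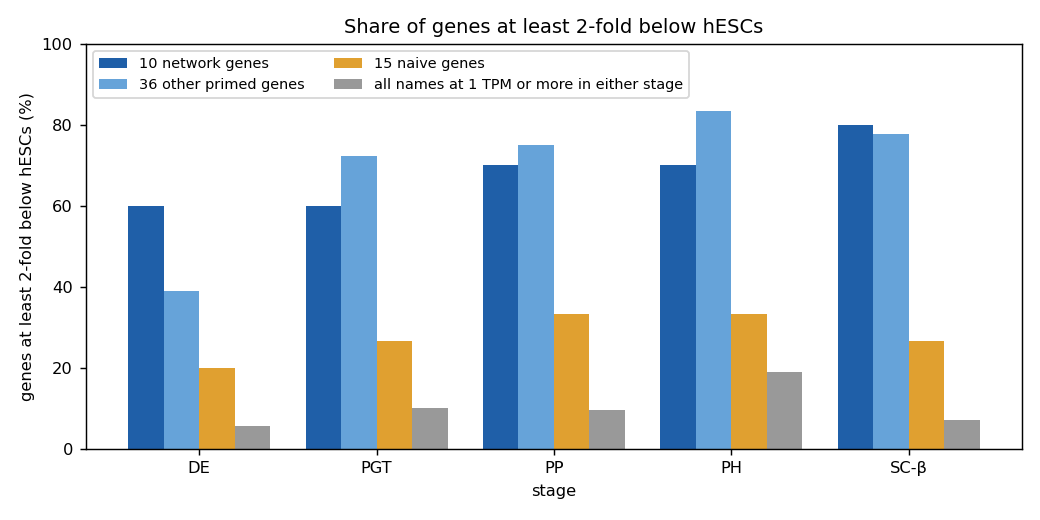
Share of genes at least 2-fold below hESCs (vertical axis, percent) at each differentiated stage for the 10 network genes, the 36 other primed genes, the 15 naive genes and all names at 1 TPM or more in either stage. The network and primed bars lie above those of the naive genes and of all names in every stage, and in DE the network genes stand at 60% and the primed list at 38.9%.

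Relatives in the same families had courses of their own. Among the SALL genes, SALL1 had 7.67 TPM in hESCs but 75.1 TPM in DE, SALL2 lay between 40.5 and 66.2 TPM in all stages, and SALL3 was at 13.1 TPM in hESCs, 1.60 TPM in PGT and 25.5 TPM in PH. SALL4 was the most abundant of the 4 in hESCs, and in PH the least. YY1, the relative of ZFP42 present in most cells, lay between 22.0 and 42.9 TPM. Of the other POU genes, POU2F1 lay between 8.95 and 25.6 TPM, whereas the neural factors POU3F2 and POU3F3 had 0.0707 and 0.00573 TPM in hESCs but 24.7 and 30.4 TPM in PH. PRDM1, a repressor used in endoderm and germ cells, had 1.95 TPM in hESCs but 37.9 TPM in DE, where PRDM14 was at 4.75 TPM.

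Copies of POU5F1 and NANOG share sequence with them, and the authors' counting could split reads between a gene and its copies. The 5 POU5F1 copies in the table summed to 38.6 TPM in hESCs, 2.66% of POU5F1, and POU5F1P4 made up 29.7 TPM of it. In PP the copies summed to 2.61 TPM, above POU5F1 itself at 0.543 TPM. NANOGP1 was at 13.1 TPM and NANOGP8 at 6.18 TPM in hESCs, 29.4% and 13.9% of NANOG, and both were below 0.3 TPM in SC-β (0 and 0.296 TPM). In SC-β, NANOGP4 and NANOGP5 were instead at 3.90 and 6.45 TPM, above NANOG at 0.0215 TPM. Levels of POU5F1 and NANOG below 1 TPM are uncertain for this reason as well as for the unknown depth.

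Genes next to the network genes were compared from a fixed rule, the nearest protein-coding genes on each side (2 per side), which gave 37 genes, 36 of them in the table. Relative to hESCs, 5 were at least 2-fold lower in DE, 3 in PGT, 5 in PP, 8 in PH and 5 in SC-β, whereas 6, 9, 6, 8 and 12 were at least 2-fold higher, and the shares of all names are those given for the 10 genes. Their median log2 ratio lay between -0.13 in PH and 0.19 in PGT. The genes named here are a selection from the 36 and do not stand for all of them. KANK4, which flanks L1TD1, had 0.168 TPM in hESCs and 13.4 TPM in SC-β. TSHZ2, which flanks SALL4, had 0.823 TPM in hESCs and 21.2 TPM in SC-β. DPPA2, a relative of DPPA4 that lies 9.63 kb from it and forms a complex with it, was at 19.4 TPM in hESCs, 1.63 TPM in DE, 1.49 TPM in PGT and 0.593 TPM in PP, whereas DPPA4 was at 77.2 TPM in PP. In DE the log2 ratio to hESCs was -2.96 for DPPA2 and -1.07 for DPPA4. TRIML2, 86.2 kb from ZFP42, was like it lower in DE than in hESCs and PGT. TRIML2 was at 64.2 TPM in hESCs, 2.34 TPM in DE, 32.3 TPM in PGT and 0.321 TPM in PP. It was listed at 0 in PH and SC-β. For ZFP42 the PGT level was only 1.81-fold above that of DE, under 2-fold.

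SLC2A14, 13.4 kb from NANOG, was at 16.4 TPM in hESCs, 4.93 TPM in DE, 12.0 TPM in PGT and 0.891 TPM in PP, so it was above its DE level in PGT where NANOG was below. ATP9A, 13.9 kb from SALL4, was lowest in hESCs at 3.13 TPM and had 23.0 TPM in DE but 45.1 TPM in PH. TCF19, added because it overlaps POU5F1 on the opposite strand, had 8.64 TPM in hESCs but 14.4 TPM in PP. FXR1, the neighbour of SOX2-OT at 7.01 kb, lay between 101 and 176 TPM in all stages. VENTX, a homeobox gene 6.30 kb from UTF1, was at 6.20 TPM in hESCs, 8.48 TPM in DE and 0.486 TPM in PGT.

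**Figure D5:**
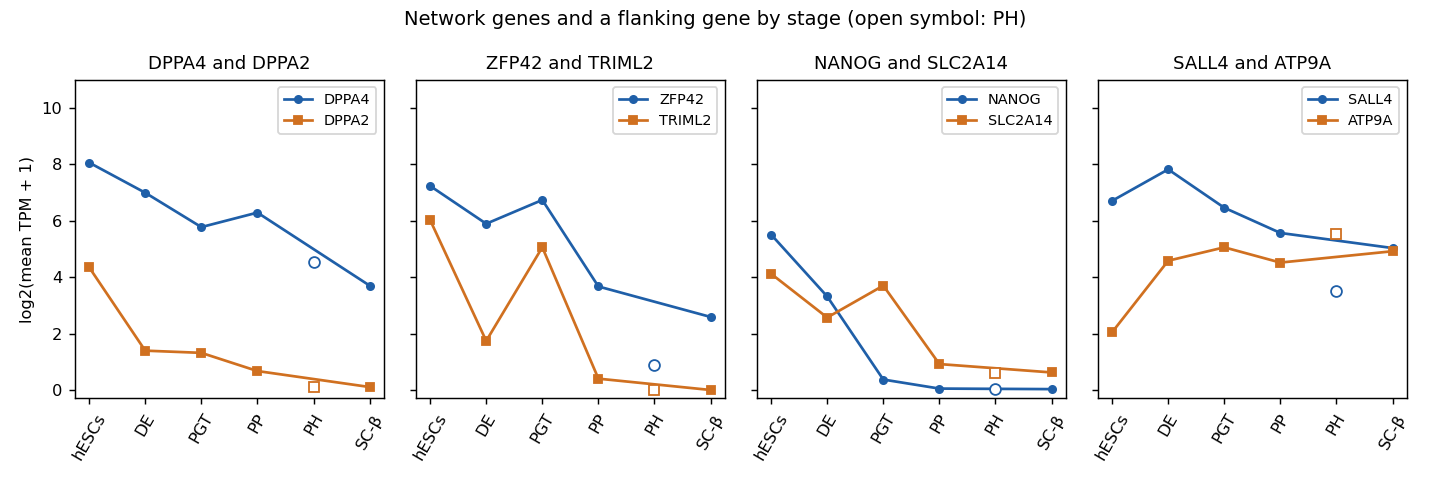
Mean RNA level (log2 of mean TPM + 1) of 4 network genes (circles) and a flanking gene of each (squares) by stage, with dated stages joined by a line and PH as an open symbol. DPPA2 is at 1.63 TPM in DE while DPPA4 is at 126 TPM. TRIML2 and ZFP42 are both lower in DE than in hESCs and PGT, and ATP9A is lowest in hESCs at 3.13 TPM.

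The genes with the most similar profile to each network gene were found by the mean absolute difference over the 6 stages of log2(TPM + 1), each profile set to its own maximum, among names that reached 10 TPM in some stage. For POU5F1 they were the noncoding transcripts CTD-2501M5.1 (0.675 log2 units), LINC00458 (0.819) and RP11-148B6.1 (1.20). For NANOG they were RP11-35J1.2 (0.122), NMRK2 (0.188) and PRDM14 itself (0.255), and for PRDM14 they were ACTA1 (0.112), RP11-256I9.2 (0.128) and RP11-562F9.3 (0.160). LINC00458 was at 1269.9 TPM in hESCs, 234 TPM in DE and 1.07 TPM in PGT.

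For SOX2 the closest were SFRP2 (0.439), SLC6A15 (0.602) and STC2 (0.647), and for SOX2-OT they were FSTL5 (0.259), MAPK8IP2 (0.272) and SCHIP1 (0.273). SFRP2, a secreted WNT antagonist, was at 68.2 TPM in hESCs, 0.416 TPM in PGT and 33.4 TPM in PP, the same dip as SOX2. For SALL4 they were SPRY4 (0.165), CGNL1 (0.170) and DMKN (0.193), of which SPRY4, an inhibitor of FGF signalling, was at 41.0 TPM in hESCs, 99.3 TPM in DE and 3.32 TPM in PH. For DPPA4 they were ITGB5 (0.420), HIST4H4 (0.510) and TLCD1 (0.512), for ZFP42 RNU5A-8P (0.387), RP11-20D14.6 (0.645) and ERVH48-1 (0.686), and for L1TD1 CTD-2306M5.1 (0.323) and MIR302B (0.445), the third being a noncoding transcript with a clone name (0.456). MIR302B, the precursor of a microRNA abundant in hESCs, was at 38.5 TPM in hESCs, 39.7 TPM in DE and 2.87 TPM in PGT. The profile of UTF1 spans less than 1 log2 unit, so the genes nearest to it, PSMC4, ATP6V1A and SIAH2, are only genes with a similarly small difference between hESCs and the rest. For genes that fall below 1 TPM, the pseudocount makes likeness depend on how similar the highest levels are. Likeness over so few stage means says nothing of shared control.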

How the data were processed

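RNA-seq was analysed in 12 samples, 2 per stage. The other samples of the series were not analysed here. Per the methods of the study and the labels' processing notes, the authors aligned reads to hg38 with HISAT2 (version 2.2.0), computed TPM per gene with StringTie (version 2.1.6) and deposited their mean over the replicates of a stage; the annotation used is not given in the sources used here. The methods state that ribosomal RNA was removed, and the labels also name a stranded mRNA kit. TPM keeps no read counts, so counting error and detection floors are unknown. Of 50451 entries, 231 names had more than 1, which were summed.

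Log2 ratios used a pseudocount of 1 TPM, and 2-fold was the threshold; percentages and plain folds are ratios of TPM. Named genes were all 10 members at every stage. Of each list, up to 10 genes with the highest TPM among those at 10 TPM or more could be named. Also named were the 3 genes of most similar profile, a selection of the 2 nearest protein-coding genes per side, and relatives and copies. Lists of markers and other pluripotency genes, like the members, were chosen with earlier results of these data known. Gene positions came from GENCODE (version 44) and promoters from RefSeq, both on GRCh38; older symbols were matched through RefSeq synonyms. Alternatives changed the pseudocount (0.1 TPM), the scaling (by median ratio over 13938 names at 1 TPM or more in every stage, or by totals that omit the 100 most abundant genes), the threshold (4-fold), the names kept (those reaching 1 TPM in either stage), the treatment of repeated names (their highest entry) and the measure of likeness (Pearson's r). The arithmetic was checked on simulated data without noise, in which 200 genes were changed exactly 4-fold. Such data cannot show how the counts behave with noise or at low TPM. Python 3.11.15 was used with numpy 2.4.6, pandas 2.3.3 and matplotlib 3.10.9.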

Additional observations from a re-analysis of the deposited data

How the results depend on the processing

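Of 157 log2 ratios of the network genes under the alternatives, 150 stayed on the same side of 2-fold, 5 passed 2-fold and 2 no longer did; no ratio past 2-fold changed sign (0 ratios). Ratios with a value listed at 0 in either stage were left out, which removed all ratios of UTF1 and those of PRDM14 that involve PGT. SALL4 in DE was under 2-fold with both scalings. SOX2 in PH against hESCs, under 2-fold throughout, changed sign from -0.29 to 0.04 with totals that omit the 100 most abundant genes. With a 4-fold threshold, 3 genes in place of 6 were below hESCs in DE, 0 in place of 1 were above hESCs in each of DE, PP and SC-β, and 1 in place of 3 was below PP in SC-β. Under median-ratio rescaling, and under totals that omit the 100 most abundant genes, no gene was above hESCs in DE (0 in place of 1). The latter scaling also put ZFP42 above DE in PGT, 1 gene in place of 0. The remaining 78 of 90 counts stayed within 1.5 times, but some of them moved. A pseudocount of 0.1 TPM gave 7 genes below hESCs in DE, 8 in each of PGT, PP and PH, and 9 in SC-β. Totals that omit the 100 most abundant genes gave the same counts. UTF1 was counted as lower in all of them. Median-ratio rescaling gave 7 in DE, with L1TD1 at -1.28, and 8 in PP. A 4-fold threshold gave 5 in PP and 6 in SC-β. Median-ratio rescaling lowers the level of every gene relative to hESCs, by 0.48 log2 units in DE, 0.34 in PGT, 0.25 in PP, 0.03 in PH and 0.52 in SC-β. A pseudocount of 0.1 TPM took the ratio of NANOG in PP against PGT to -1.54 and that of SOX2-OT in PGT against hESCs to -1.67. Keeping the highest entry could not change a member, since each has a single entry. By Pearson's r, the 3 most similar genes shared 1 with the main measure for NANOG and for PRDM14 and 0 for each of the others. No paired analysis was possible because the table holds the mean of the replicates, and leaving out each replicate in turn could not be run for the same reason. The cause of these changes was not tested. Values below 1 TPM have no known precision.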
